A study of Mus musculus with 10 samples.

Results

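The 36 genes described here are markers of monocytes and macrophages, taken as a list of gene symbols and found in the deposited table of 55359 genes through their Ensembl identifiers. All 36 were found, and all 36 had a mean of at least 0.1 FPKM over the 10 libraries, which was the limit for testing a gene. FPKM counts the fragments of a gene in proportion to its length and to the depth of the library. The list was not chosen by a threshold on these values. It was chosen with earlier results of these data known, so counts over the list are descriptions, not independent evidence, and no p is given for it.

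RNA was sequenced from lineage-negative (Lin-) bone marrow cells of mice, in 5 libraries from Dhx9f/f mice, labelled WT, and 5 from Dhx9f/f;MX1 mice, labelled cKO. The comparison asks what changes in these cells when the RNA helicase gene Dhx9 is deleted in the adult. Both genotypes carry the floxed Dhx9 allele, and the cKO mice also carry Cre recombinase under the interferon-inducible Mx1 promoter, which acts in blood cells and in other tissues that respond to interferon. GEO gives the genotype of the latter as "Dhx9 knock down". Cre was induced with injections of poly(I:C), a double-stranded RNA that makes cells release interferon. In general, mice were studied a week after their first injection. It is not stated outright that the WT mice sequenced here received poly(I:C), and if they did not, an effect of that agent and an effect of the genotype cannot be told apart. The age of the mice is not given. Cells were enriched with a Lineage Cell Depletion Kit, whose antibodies include those to CD11b, the product of the member Itgam, and to Gr-1, which binds Ly6G and Ly6C. Mature monocytes and granulocytes are thus among the cells that the kit removes.

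Monocytes arise in bone marrow from granulocyte and monocyte progenitors under the transcription factors PU.1, IRF8 and C/EBP alpha and the growth factor receptor CSF1R. They leave for the blood through the chemokine receptor CCR2 and become macrophages or dendritic cells in tissues. Their genes encode lysosomal enzymes that digest microbes, receptors that sense microbial sugars and lipids, and clotting and matrix proteins for wound repair.

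Sequencing depth, read from the FPKM of genes with a single transcript, was 15042600 to 18770000 fragments (median 16524800) in WT and 13880000 to 17188400 (median 15859800) in those labelled cKO. At 3 fragments, a gene of 1000 bp would stand at 0.160 to 0.216 FPKM, depending on the library. Dhx9 itself was at 68.96, 72.42, 72.18, 69.55 and 65.43 FPKM in WT 1 to 5. It was at 130.82, 148.8, 131.25, 156.49 and 131.98 FPKM in cKO 1 to 5. The targeted gene was thus higher in every library labelled cKO than in any labelled WT, against the labels (log2 fold change 1.0, standard error 0.0654, adjusted p = 1.39e-05, limma with Benjamini-Hochberg adjustment). Its fold change lies at the limit of 2, just under it without WT 1, 4 or 5 or cKO 2 or 4 (0.96 to 1.0 on the log2 scale), and was under it also with a pseudocount of 1 (0.99), with a covariate for Xist (0.98), with an equal sum per library (0.96) and with quantile normalization (0.89). These values are for the whole gene, and its deleted part was not measured apart. The paper reports reduced DHX9 in cKO bone marrow and, by qRT-PCR, lower Spi1 and Cebpa in cKO Lin- cells. In these libraries Spi1 and Cebpa were also lower under the cKO label (log2 fold changes -1.73 and -3.09). An exchange of labels was not tested. Because Dhx9 goes against the labels, the libraries are called by their labels throughout, and every direction rests on those labels. Xist, transcribed in females, was at 99.19, 121.04 and 127.76 FPKM in WT 3, 4 and 5, at 0.07 and 0.04 in WT 1 and 2 and no higher than 0.09 in any library labelled cKO, so sex differed among the WT mice and partly between the groups.

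Monocyte and macrophage markers were far lower in the libraries labelled cKO. Summed over the 36 genes, their level was 3366.71, 2164.55, 1997.07, 2927.97 and 3308.41 FPKM in WT 1 to 5. In cKO 1 to 5 the sum was 356.7, 133.75, 465.81, 124.36 and 715.97 FPKM. The means were 2753 ± 639 and 359 ± 247 FPKM (mean ± SD, n = 5 each), a ratio of 7.66, and the 2 groups did not overlap. The WT sums rest mostly on abundant genes such as Lyz2 and Plac8. In cKO 4, with the lowest sum, the largest parts were Cst3 (39.73 FPKM) and Alox5 (34.4 FPKM). Plac8 was at 19.86 FPKM and Lyz2 at 2.09 FPKM in that library. For this reason the genes were also tested one by one. Because these are bulk samples, fewer cells of a type and less RNA per cell cannot be told apart here or in any result that follows.

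Of the 36 members, limma called 32 lower in the libraries labelled cKO, at a Benjamini-Hochberg adjusted p under 0.05 and at least a doubling or halving, where 16.8% of the 18742 genes tested were called lower. The tool called 0 members higher, and 0 had a positive change at an unadjusted p under 0.05, where 4.60% of all genes were called higher. In 30 members all 5 libraries labelled cKO lay below all 5 labelled WT, which was so for 21.6% of all genes. The median log2 fold change of the 36 was -3.16, beside -0.11 over all genes tested, and it ranged from -5.58 for Fn1 to 0.73 for Clec4n. A log2 fold change of -3 or less was seen in 23 members and in 1.76% of all genes. At -4 or less stood 8 members, of 70 genes in all. Because 0.1 was added to each FPKM before taking log2, changes of genes with low values come out too small.

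**Figure D1:**
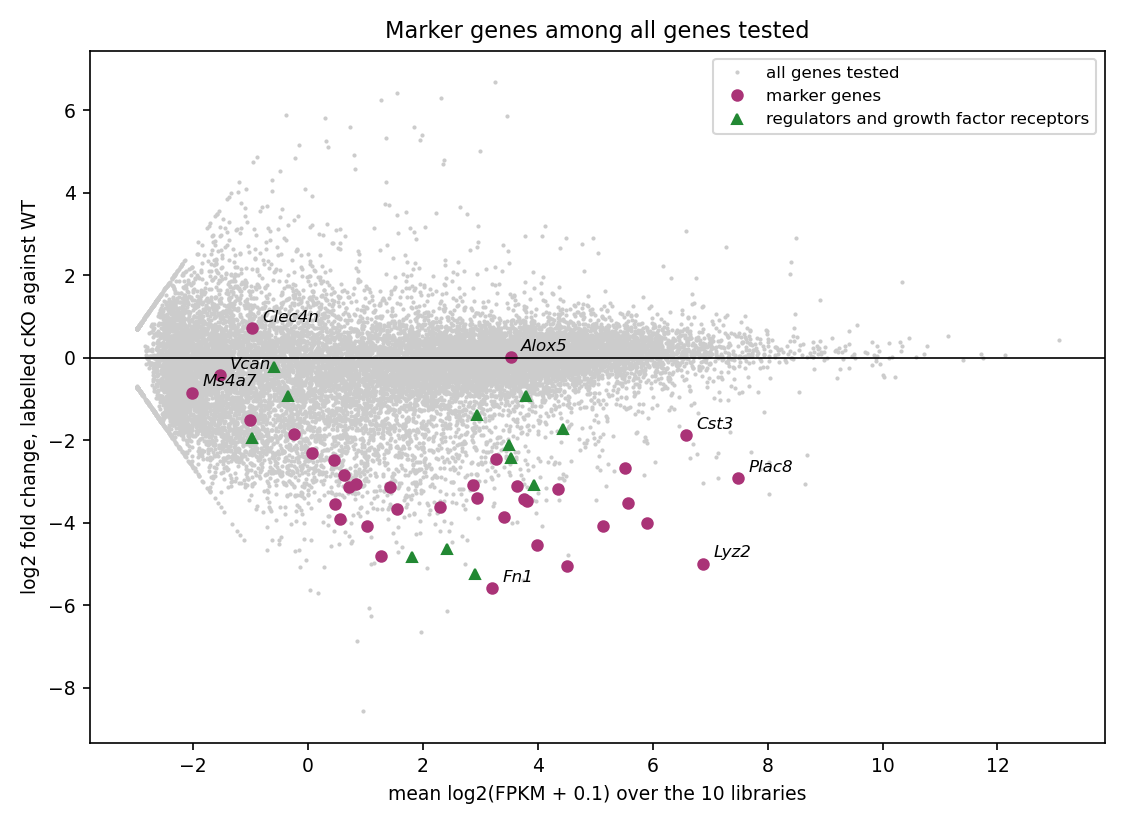
Log2 fold change of the libraries labelled cKO against WT (vertical axis) and mean log2(FPKM + 0.1) over the 10 libraries (horizontal axis) for the 18742 genes tested. Each point is a gene, with the 36 marker genes as circles and the regulators and growth factor receptors as triangles, and most marker genes lie below -2, though not those of lowest expression.

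**Figure D2:**
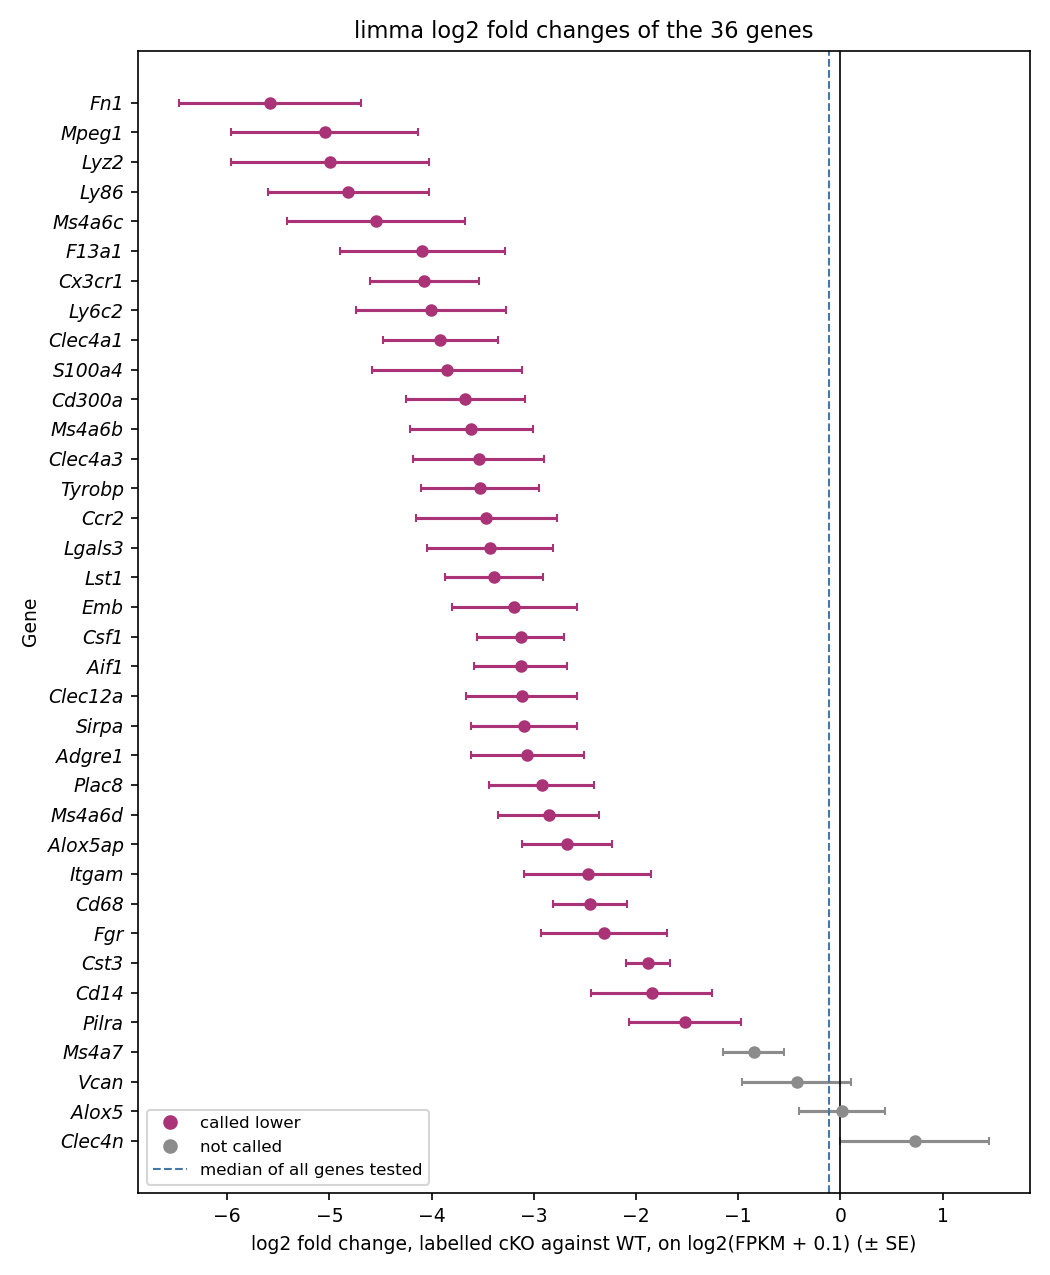
Log2 fold changes of the 36 marker genes on log2(FPKM + 0.1) with their standard errors from limma, for 5 libraries labelled cKO against 5 labelled WT. The 32 genes called lower are in purple and the 4 not called in grey, and the dashed line marks the median of all genes tested, -0.11.

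Promoter sequences are shown for 4 members, since most of the group moved together and since 3 regulators of the lineage have well-known short motifs. RefSeq windows of 300 bases, from 250 before to 50 after the start, were found by symbol for 27 of the 36 members in a table built on GRCm38.p6, and positions are those of the same letters in GRCm39. Searched on both strands were GAGGAA, the PU box bound by PU.1, TTNNGNAA, a form of the C/EBP site, and GGAANNGAA, a composite of ETS and IRF sites that can overlap the PU box. In the first listed window of each gene, GAGGAA was present in 15 of the 27 members (55.6%) and of 28.3% of 27025 genes. TTNNGNAA was present in 15 members (55.6%) and 40.7% of genes, and GGAANNGAA in 5 members (18.5%) and 8.25% of genes. At least 1 of the 3 was present in 20 members (74.1%) and in 59.96% of genes. Clec4a3, not counted, has GAGGAA in its other window alone. These shares are descriptions, with no test, and a match of letters is not a binding site.

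Among the lysosomal and antimicrobial proteins, all 4 members fell. Lyz2 (ENSMUSG00000069516, chromosome 10 of GRCm39 from 117111557 to 117118346, minus strand) encodes the lysozyme of myeloid cells, which cleaves bacterial cell walls, and was the most abundant member in WT. It was at 897.42, 478.35, 460.35, 716.24 and 918.13 FPKM in WT 1 to 5. Its levels in cKO 1 to 5 were 34.04, 5.75, 72.82, 2.09 and 124.82 FPKM. No library labelled cKO came near WT, yet these 5 libraries differed widely among themselves, with cKO 5 highest and cKO 4 lowest (log2 fold change -4.99, standard error 0.969, adjusted p = 0.00179, limma). Mpeg1 (ENSMUSG00000046805) encodes perforin-2, a pore-forming protein that attacks engulfed bacteria. Its WT levels were 160.04, 109.41, 108.96, 140.17 and 148.33 FPKM, and those of cKO 1 to 5 were 3.17, 1.42, 18.44, 0.39 and 22.18 FPKM. The order of the 5 libraries labelled cKO was that of Lyz2 (log2 fold change -5.05, standard error 0.914, adjusted p = 0.00118, limma). Cd68, for a lysosomal membrane glycoprotein, went from 22.7 ± 2.71 to 4.74 ± 2.87 FPKM, and Cst3, for the protease inhibitor cystatin C, from 187 ± 31.4 to 52.4 ± 18.9 FPKM (mean ± SD, n = 5 each). Cst3 had the most even values of the members called lower and above 0 in every library labelled cKO, at 42.81, 36.07, 62.55, 39.73 and 80.93 FPKM in cKO 1 to 5.
The windows of Lyz2 (chr10:117118128-117118427, minus strand) and Cd68 (chr11:69556947-69557246, minus strand) are printed 5′ to 3′ with the motif matches in capitals, Lyz2 as the most abundant member in WT and Cd68 because its window holds all 3 motifs.
Lyz2: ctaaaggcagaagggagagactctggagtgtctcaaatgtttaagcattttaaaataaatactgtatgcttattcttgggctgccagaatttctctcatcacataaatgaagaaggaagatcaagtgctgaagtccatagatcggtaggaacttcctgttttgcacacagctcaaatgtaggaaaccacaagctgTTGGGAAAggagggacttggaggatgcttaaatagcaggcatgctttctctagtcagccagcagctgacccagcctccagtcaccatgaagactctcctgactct
Cd68: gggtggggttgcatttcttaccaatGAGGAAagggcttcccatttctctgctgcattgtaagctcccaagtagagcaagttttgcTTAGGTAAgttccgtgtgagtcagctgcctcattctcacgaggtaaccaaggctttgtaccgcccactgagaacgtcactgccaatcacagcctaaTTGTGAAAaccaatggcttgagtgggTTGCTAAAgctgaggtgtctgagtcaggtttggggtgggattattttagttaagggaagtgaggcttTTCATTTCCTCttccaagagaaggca
In Lyz2 the match is TTNNGNAA, from 55 to 48 bases before the start. In Cd68 GAGGAA lies from 225 to 220 bases before the start, and TTNNGNAA is matched 3 times before the start. The last run of capitals holds GGAANNGAA and GAGGAA on the opposite strand, overlapping.

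All 6 surface antigens and receptors for chemokines and adhesion fell. Ly6c2 (ENSMUSG00000022584, chromosome 15 from 74980003 to 74988467, minus strand) encodes the Ly6C antigen by which classical monocytes are recognised in the mouse. It was at 281.94, 173.96, 185.88, 282.07 and 299.31 FPKM in WT 1 to 5 and at 17.77, 4.73, 39.36, 3.2 and 64.1 FPKM in cKO 1 to 5. The groups did not overlap, and cKO 5 had 26.2% of the WT mean where cKO 4 had 1.31% (log2 fold change -4.01, standard error 0.732, adjusted p = 0.00125, limma). Cx3cr1, the fractalkine receptor typical of patrolling monocytes and many tissue macrophages, had the largest fall of the 6. Its WT levels were 9.47, 9.25, 6.27, 7.52 and 9.62 FPKM, and those of cKO 1 to 5 were 0.1, 0.44, 0.8, 0.1 and 1.52 FPKM. Here cKO 1 was as low as cKO 4 (log2 fold change -4.07, standard error 0.535, adjusted p = 0.00021, limma). Ccr2, the receptor that guides monocytes out of the marrow, went from 47.7 ± 11.1 to 7.004 ± 7.08 FPKM, and Emb, for the adhesion protein embigin, from 62.7 ± 13.99 to 9.68 ± 7.82 FPKM (mean ± SD, n = 5 each). Adgre1, for the macrophage antigen F4/80, went from 5.16 ± 0.953 to 0.728 ± 0.559 FPKM, and Itgam, for the integrin chain CD11b, from 3.19 ± 0.589 to 0.766 ± 0.726 FPKM (mean ± SD, n = 5 each). CD11b is the antigen that the depletion kit binds, and Itgam was the lowest of the 6 in WT. With a covariate for Xist, which separates WT 3 to 5 from the other libraries, Itgam was no longer called (adjusted p = 0.0514, limma), at a log2 fold change of -2.50 beside -2.47 without the covariate.
The Ly6c2 window (chr15:74983771-74984070, minus strand), 1 of 2 overlapping windows of this gene, is shown because its antigen is what defines classical monocytes, with the matches in capitals.
Ly6c2: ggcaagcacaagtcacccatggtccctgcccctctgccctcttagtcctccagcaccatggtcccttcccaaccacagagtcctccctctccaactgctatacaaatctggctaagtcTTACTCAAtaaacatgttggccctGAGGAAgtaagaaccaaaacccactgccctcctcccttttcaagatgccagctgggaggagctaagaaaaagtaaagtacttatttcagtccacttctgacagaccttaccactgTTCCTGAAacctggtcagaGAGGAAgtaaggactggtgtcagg
From the first capitals to the last, the matches are to TTNNGNAA on the opposite strand (132 to 125 bases before the start), GAGGAA (108 to 103 bases before it), TTNNGNAA on the opposite strand and GAGGAA, both of the latter after the start.

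The MS4A genes encode membrane proteins with 4 transmembrane segments, several of them typical of monocytes and macrophages, and those listed here lie together on chromosome 19 from 11298403 to 11582213. Of the 4, 3 were called lower. Ms4a6c, both the most abundant and the one with the largest fall, was at 107.29, 64.98, 54.02, 81.94 and 84.55 FPKM in WT 1 to 5. It was at 4.05, 1.02, 10.94, 0.33 and 17.13 FPKM in cKO 1 to 5. The WT libraries lay closer to each other than the lowest of them did to the nearest library labelled cKO, on the log2 scale (log2 fold change -4.54, standard error 0.872, adjusted p = 0.00167, limma). Ms4a6b went from 17.6 ± 4.54 to 1.91 ± 1.51 FPKM and Ms4a6d from 4.20 ± 1.20 to 0.662 ± 0.650 FPKM (mean ± SD, n = 5 each). Ms4a7, known from tissue macrophages, was low everywhere. Its WT levels were 0.19, 0.28, 0.23, 0.28 and 0.19 FPKM, and those of cKO 1 to 5 were 0.19, 0.05, 0.14, 0.02 and 0.07 FPKM. The groups met at 0.19 FPKM, in cKO 1 and in WT 1 and 5, and Ms4a7 missed the fold limit (log2 fold change -0.85, standard error 0.297, adjusted p = 0.0375, limma), which it passed without cKO 1 (log2 fold change -1.01). Its means were 0.234 FPKM in WT and 0.094 in the libraries labelled cKO, a ratio of 2.49. The 0.1 added before log2 makes so low a change come out too small. Over the alternatives the log2 fold change of Ms4a7 ranged from -1.51 to -0.18. Over the libraries its values stand for about 1.33 to 23.4 fragments, and what difference could be detected at this depth was not tested.

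Both genes of lipopolysaccharide sensing fell. Ly86 encodes MD-1, the partner of the receptor RP105 in binding bacterial lipids, and was at 14.35, 11.29, 10.92, 13.41 and 14.33 FPKM in WT 1 to 5. It was at 0.04, 0.19, 1.54, 0.02 and 2.42 FPKM in cKO 1 to 5. WT was tight, with an SD of 1.65 around a mean of 12.9, while cKO 1, 2 and 4 were close to 0 (log2 fold change -4.81, standard error 0.792, adjusted p = 0.000693, limma). Cd14, for the co-receptor that hands lipopolysaccharide to TLR4, was low in Lin- cells of WT. Its levels were 1.54 ± 0.305 FPKM in WT and 0.536 ± 0.498 in the libraries labelled cKO (mean ± SD, n = 5 each), and the groups met at 1.2 FPKM in WT 3 and cKO 5. Cd14 was called lower (log2 fold change -1.85, standard error 0.592, adjusted p = 0.0253, limma). That call was lost without WT 1, WT 5, cKO 2 or cKO 4 (adjusted p = 0.0509 to 0.0610), with a pseudocount of 1, with quantile normalization and with the Xist covariate. Its log2 fold change was -1.84 without WT 1 and -1.82 with the Xist covariate, and nearer to 0 without WT 5 (-1.75), cKO 2 (-1.50) or cKO 4 (-1.43).

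Lectins, immunoreceptors and their signalling partners make up the largest role, and 9 of its 10 members fell. Tyrobp encodes DAP12, the adaptor through which many activating receptors of myeloid cells signal. It was at 207.81, 143.3, 113.56, 169.07 and 194.18 FPKM in WT 1 to 5 and at 22.64, 6.8, 24.75, 3.41 and 39.93 FPKM in cKO 1 to 5. Even cKO 5 had less than the lowest WT library by a wide margin (log2 fold change -3.53, standard error 0.579, adjusted p = 0.000678, limma). Clec4a1, a C-type lectin of the dendritic cell immunoreceptor family, was at 5.47, 3.6, 4.98, 6.76 and 8.71 FPKM in WT 1 to 5. In cKO 1 to 5 it was at 0.23, 0.19, 0.92, 0 and 0.73 FPKM. The library listed at 0 was cKO 4, and the highest here was cKO 3 (log2 fold change -3.91, standard error 0.562, adjusted p = 0.000331, limma). Its neighbour Clec4a3 was likewise listed at 0 in cKO 4 and highest in cKO 3, and went from 4.996 ± 2.26 to 0.486 ± 0.469 FPKM (mean ± SD, n = 5 each).

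The other members of this role that were called lower fell by differing amounts. Clec12a, which binds uric acid crystals released by dead cells, went from 37.1 ± 7.15 to 5.62 ± 4.05 FPKM, and Sirpa, which receives the "do not eat me" signal of CD47, from 21.8 ± 4.12 to 3.24 ± 2.39 FPKM (mean ± SD, n = 5 each). Cd300a went from 10.6 ± 2.45 to 1.11 ± 1.16 FPKM (mean ± SD, n = 5 each). Lst1, next to Aif1 in the major histocompatibility region of chromosome 17, went from 25.3 ± 5.73 to 2.94 ± 2.25 FPKM (mean ± SD, n = 5 each). The log2 fold changes of these 4 genes lay between -3.67 for Cd300a and -3.09 for Sirpa. Fgr, a Src-family kinase, went from 2.27 ± 0.403 to 0.590 ± 0.569 FPKM (mean ± SD, n = 5 each) and was no longer called with the Xist covariate (adjusted p = 0.0714, limma), at a log2 fold change of -2.25 beside -2.31 without it. Pilra, a paired inhibitory receptor, overlapped between the groups, with 0.766 ± 0.199 FPKM in WT and 0.292 ± 0.298 in the libraries labelled cKO (mean ± SD, n = 5 each). It was called lower with an adjusted p close to the limit (log2 fold change -1.52, adjusted p = 0.0414, limma), and the call was lost without WT 2, 3, 4 or 5 or without cKO 2, 4 or 5 (adjusted p = 0.0572 to 0.0995). It was lost as well with a pseudocount of 0.01 or 1, with no limit on the mean FPKM, with median-ratio scaling or quantile normalization, with a block for same-numbered libraries and with the Xist covariate. Its log2 fold change stayed at -1.52 with no limit and with the block, and was -1.45 with median-ratio scaling and -2.48 with a pseudocount of 0.01. It was nearer to 0 with the Xist covariate (-1.21), quantile normalization (-1.11) and a pseudocount of 1 (-0.47). Without single libraries where the call was lost, it ranged from -1.59 (cKO 5) to -1.13 (cKO 4).

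Clec4n was the member furthest from the others. It encodes dectin-2, a receptor for fungal mannans that signals through an Fc receptor chain, and lies on chromosome 6 within a cluster that also holds Clec4a1 and Clec4a3, from 122896122 to 123223980. In WT it was at 0, 0.47, 0.41, 0.49 and 0.47 FPKM, and those of cKO 1 to 5 were 0.51, 0.37, 1.58, 0.05 and 1.59 FPKM. The groups overlapped, with cKO 1, cKO 3 and cKO 5 above every WT library and cKO 4 below all but WT 1 (log2 fold change 0.73, standard error 0.729, adjusted p = 0.447, limma). The size of this change rests on single libraries, being 0.23 without WT 1, 0.39 without cKO 3 or cKO 5 and 1.26 without cKO 4, and it was 1.46 with the Xist covariate. In the libraries labelled cKO these values stand for about 1.06 to 36.01 fragments.

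**Figure D3:**
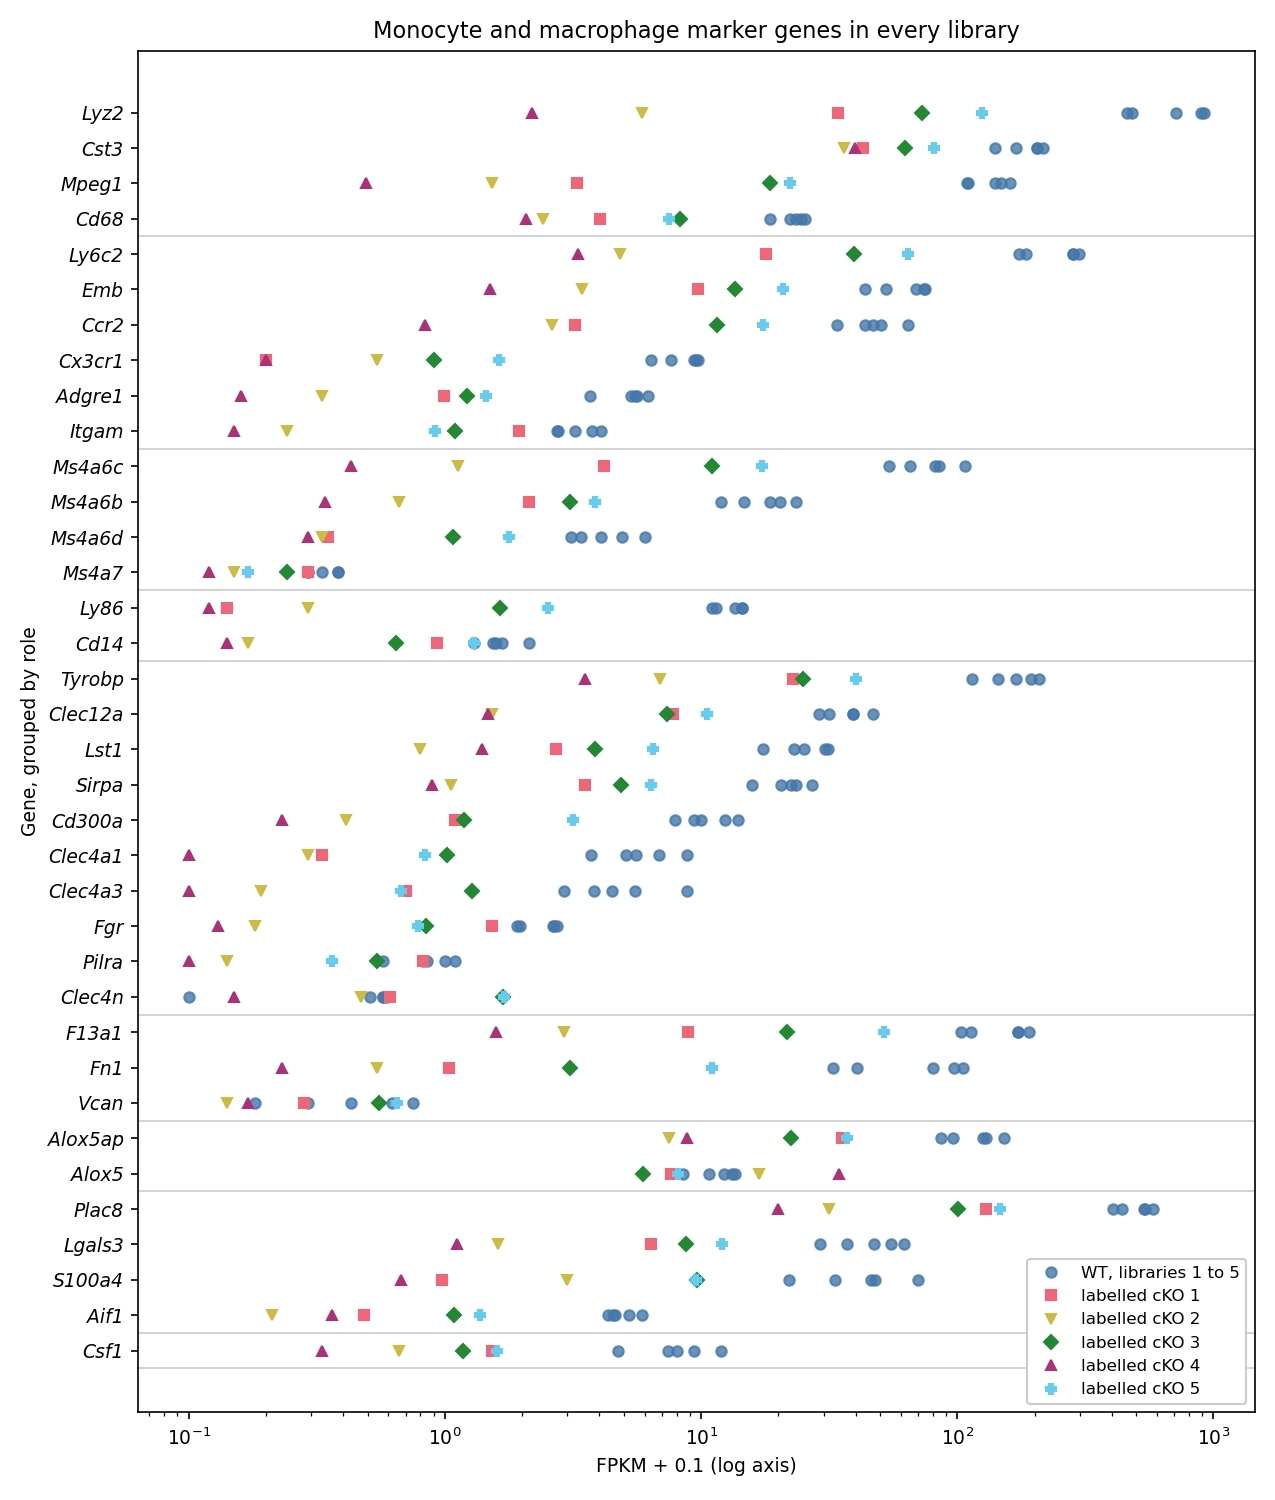
FPKM + 0.1 on a log axis (horizontal) of each of the 36 marker genes (vertical, grouped by role) in every library, with WT as circles and the 5 libraries labelled cKO as separate symbols. In most genes all 5 symbols lie to the left of the WT circles and are spread far wider than these, while Alox5, Clec4n, Vcan and Pilra overlap with WT and Ms4a7 and Cd14 meet it.

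Of the 3 matrix and clotting proteins, 2 were called lower. F13a1 encodes the A subunit of clotting factor XIII, which cross-links fibrin and is stored in monocytes, and was at 172.06, 103.31, 112.39, 171.69 and 189.83 FPKM in WT 1 to 5. It was at 8.8, 2.8, 21.53, 1.48 and 51.68 FPKM in cKO 1 to 5. The groups were apart in every library, with cKO 5 at 34.5% of the WT mean (log2 fold change -4.09, standard error 0.808, adjusted p = 0.00197, limma). Fn1 (ENSMUSG00000026193, chromosome 1 from 71624673 to 71692419, minus strand), for the matrix protein fibronectin, had the largest fall of the 36. WT stood at 104.92, 32.52, 40.6, 80.3 and 97.12 FPKM, and those of cKO 1 to 5 were 0.93, 0.44, 2.97, 0.13 and 10.95 FPKM. WT itself varied more here than in any other member called lower, by 3.23-fold between its lowest and highest libraries (log2 fold change -5.58, standard error 0.892, adjusted p = 0.000587, limma). Including Fn1, 9 of the 18742 genes tested had a fall at least as large. Vcan, for the proteoglycan versican, was at 0.65, 0.08, 0.19, 0.33 and 0.52 FPKM in WT 1 to 5 and at 0.18, 0.04, 0.45, 0.07 and 0.55 FPKM in cKO 1 to 5. In FPKM it varied as much within WT as within the libraries labelled cKO (SD 0.233 and 0.230), and it was not called (log2 fold change -0.43, standard error 0.535, adjusted p = 0.549, limma), with its sign reversed under quantile normalization (0.08).

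The leukotriene pathway was split between its 2 members. Alox5ap encodes FLAP, which presents arachidonic acid to the enzyme 5-lipoxygenase, and was at 128.94, 95.59, 86.27, 126.31 and 152.36 FPKM in WT 1 to 5. It was at 35.36, 7.41, 22.2, 8.73 and 36.94 FPKM in cKO 1 to 5. Alox5ap fell without overlap (log2 fold change -2.67, standard error 0.442, adjusted p = 0.000711, limma). Alox5 (ENSMUSG00000025701, chromosome 6 from 116387032 to 116438139, minus strand) encodes the enzyme itself, which makes the precursor of all leukotrienes. Its WT levels were 12.12, 13.06, 8.41, 10.65 and 13.46 FPKM, and those of cKO 1 to 5 were 7.53, 16.66, 5.83, 34.4 and 7.99 FPKM. The highest 2 libraries of all 10 were cKO 4 and cKO 2, which held the lowest and next lowest sums of the 36 genes, and the other 3 lay below every WT library. Its mean change was near 0 and was not called (log2 fold change 0.02, standard error 0.417, adjusted p = 0.979, limma), and with an equal sum per library it was -0.02. Without cKO 4 the log2 fold change was -0.38, and it was also negative without cKO 2 (-0.12), WT 3 (-0.09) or WT 4 (-0.01).
The Alox5 window (chr6:116438090-116438389, minus strand) is printed as that of a member that was not called but whose promoter holds GAGGAA, in capitals.
Alox5: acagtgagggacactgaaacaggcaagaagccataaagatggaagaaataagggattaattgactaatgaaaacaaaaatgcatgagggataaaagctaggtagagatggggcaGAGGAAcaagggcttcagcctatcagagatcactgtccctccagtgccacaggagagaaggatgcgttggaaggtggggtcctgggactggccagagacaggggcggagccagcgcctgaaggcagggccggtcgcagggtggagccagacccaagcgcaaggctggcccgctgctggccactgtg
This match lies from 136 to 131 bases before the start.

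All 4 calcium-binding, galectin and other cytoplasmic proteins fell. Plac8, a small cysteine-rich protein of myeloid progenitors and granulocytes as well as monocytes, was at 581.62, 439.09, 406.1, 535.73 and 542.04 FPKM in WT 1 to 5. It was at 129.58, 31.35, 100.19, 19.86 and 146.43 FPKM in cKO 1 to 5. The 2 groups were far apart, and cKO 1 stood above cKO 3 here, unlike in Lyz2 (log2 fold change -2.92, standard error 0.509, adjusted p = 0.000945, limma). S100a4, a calcium-binding protein of motile cells, was at 69.9, 33.15, 21.93, 45.94 and 47.47 FPKM in WT 1 to 5 and at 0.87, 2.89, 9.5, 0.57 and 9.47 FPKM in cKO 1 to 5. In this gene cKO 3 and cKO 5 were level, and cKO 1 was close to cKO 4 (log2 fold change -3.85, standard error 0.734, adjusted p = 0.0016, limma). Lgals3, for the sugar-binding galectin-3, went from 45.9 ± 13.3 to 5.86 ± 4.67 FPKM, and Aif1, for the actin-bundling protein IBA1, from 4.80 ± 0.631 to 0.6 ± 0.499 FPKM (mean ± SD, n = 5 each).

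Csf1 encodes the growth factor on which monocytes and macrophages depend and was the sole ligand of the list. Levels in WT were 11.83, 7.3, 4.63, 7.97 and 9.27 FPKM, and those of cKO 1 to 5 were 1.42, 0.56, 1.07, 0.23 and 1.49 FPKM. It fell without overlap (log2 fold change -3.13, standard error 0.427, adjusted p = 0.000255, limma). The range among the libraries labelled cKO was narrower than for Lyz2, with the highest 6.48 times the lowest.

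The 5 libraries labelled cKO held the markers at very different levels, with the same library highest and the same lowest in most genes. Among the 32 members called lower, the median level was 11.8%, 3.97%, 19.1%, 1.44% and 26.1% of the WT mean in cKO 1 to 5. The highest of the 5 was cKO 5 in 25 genes, cKO 3 in 4 and cKO 1 in 3, which are Itgam, Fgr and Pilra. The lowest was cKO 4 in 28 genes, cKO 2 in 4 and cKO 1 in 1, where Cx3cr1, with cKO 1 and cKO 4 level, counts for both. In 15 genes the full order from highest to lowest was cKO 5, 3, 1, 2 and 4. Each of the 5 libraries was under 50% of the WT mean in 28 of the 32 genes. The Pearson correlation of a library's 36 log2 levels with the WT mean was 0.795, 0.814, 0.928, 0.707 and 0.947 in cKO 1 to 5. These are correlations across genes, which are not independent replicates and share their libraries (n = 36).

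Spread within the group was thus a property of most of the markers. Of the 29 members called lower and above 0 in every library labelled cKO, the median ratio of the highest to the lowest of these libraries was 15.6, and the smallest was 2.24, for Cst3. Over the 32 members called lower, the median ratio in WT was 1.77. All 36 members had a larger SD of log2 values within the libraries labelled cKO than within WT, as did 68.8% of all genes tested. The median SD within the libraries labelled cKO was 1.46 for the members, 1.88 for the neutrophil list, 1.39 for near copies of members, 1.24 for the resident macrophage list and 0.351 for all genes. For the dendritic cell list it was 0.871, for the regulators 0.692 and for the stromal and endothelial list 0.624. The stem and progenitor list had 0.623 and the erythroid list 0.317. More abundant members fell further on this scale, with a Pearson correlation of -0.63 between log2 fold change and log2 WT mean across the 36 genes, a description that shares the WT values between both measures.

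**Figure D4:**
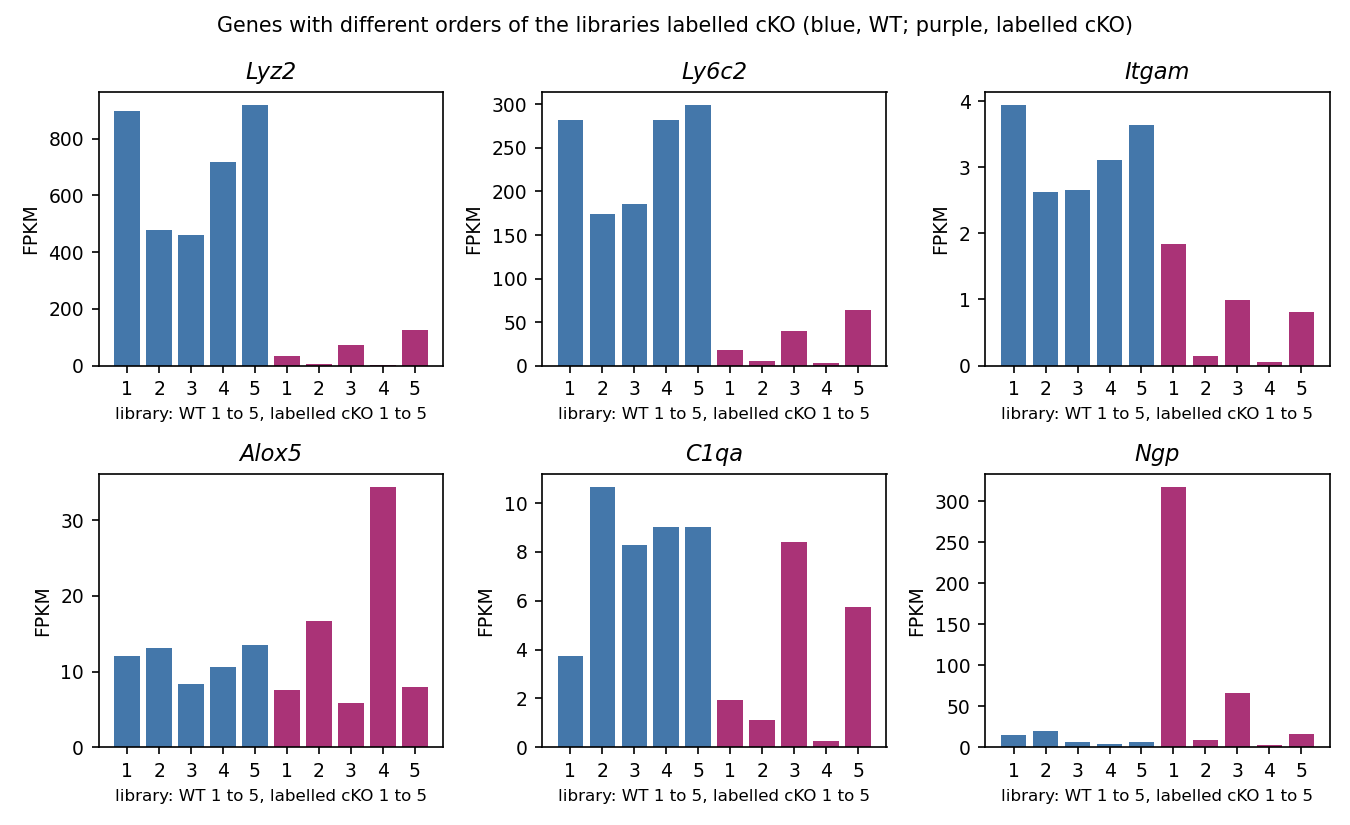
FPKM of 6 genes in each library, with WT 1 to 5 in blue and the libraries labelled cKO 1 to 5 in purple, on linear axes that start at 0. Lyz2 and Ly6c2 are highest in cKO 5 among the libraries labelled cKO, Itgam in cKO 1 and Alox5 in cKO 4, while C1qa of resident macrophages and Ngp of neutrophils, both chosen like Itgam after their values were seen, are highest in cKO 3 and cKO 1.

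Regulators of monocyte development and receptors for their growth factors were lower as well. Of a list of 14 such genes, 12 were tested, and limma called 9 lower and 0 higher, where the shares of all genes were 16.8% and 4.60%. These genes had 0 positive changes at an unadjusted p under 0.05, and their median log2 fold change was -2.04, beside -0.11 over all genes. The receptor for CSF1 itself, Csf1r, was at 30.97, 25.78, 19.6, 27.66 and 30.12 FPKM in WT 1 to 5. It was at 0.78, 0.38, 2.79, 0.09 and 6.09 FPKM in cKO 1 to 5. Its order was thus the same as that of Lyz2 (log2 fold change -4.63, standard error 0.782, adjusted p = 0.000799, limma). Klf4, a factor needed for Ly6C-positive monocytes, had 19.1 ± 3.91 FPKM in WT and 1.42 ± 1.94 in the libraries labelled cKO (mean ± SD, n = 5 each), and its log2 fold change was -4.84. Irf8, which commits progenitors to monocytes and dendritic cells, had a log2 fold change of -5.24, and Cebpa one of -3.09.

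Other regulators fell less and more evenly. Spi1, which encodes PU.1, was at 9.46, 10.25, 11.93, 14.12 and 14.54 FPKM in cKO 1 to 5 and at 30.34 or more in WT. Here cKO 4, the lowest library for most markers, stood next to cKO 5 (log2 fold change -1.73, standard error 0.149, adjusted p = 4.64e-05, limma). The 2 chains of the GM-CSF receptor, Csf2ra and Csf2rb, went from 27.2 ± 6.18 to 5.09 ± 1.66 and from 24.4 ± 6.98 to 5.57 ± 1.79 FPKM (mean ± SD, n = 5 each). Zeb2 went from 12.4 ± 1.28 to 4.75 ± 1.0 FPKM and Nr4a1, needed for Ly6C-low monocytes, from 0.942 ± 0.313 to 0.170 ± 0.0738 FPKM (mean ± SD, n = 5 each). Nr4a1 missed the fold limit with a pseudocount of 1 (log2 fold change -0.72).

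The factors Cebpb and Maf were not called. Cebpb was at 19.4 ± 4.78 FPKM in WT and 11.1 ± 5.25 in the libraries labelled cKO (mean ± SD, n = 5 each), with a log2 fold change of -0.92 (adjusted p = 0.0472, limma), and it passed the fold limit without WT 3 (-1.03), cKO 3 (-1.12) or cKO 5 (-1.06). Maf was at 0.624 ± 0.133 and 0.690 ± 0.587 FPKM (mean ± SD, n = 5 each; log2 fold change -0.22, adjusted p = 0.749, limma), and its sign was positive with quantile normalization (0.28) or without cKO 4 (0.11). The ligands Il34 and Csf2 were below the limit for testing, at means of 0.0680 and 0.0600 FPKM in WT.

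Some members share sequence with other genes, which bears on how reads were assigned. Of 36 members, 17 had no stretch of 50 bases of their main transcript in a transcript of another gene, and 26 had under 5% of such stretches. The largest share was 90.8%, for Itgam with the overlapping annotation Gm49368, which was at 0.01 FPKM or less in every library. S100a4 shared 55.7% with Gm42674, listed at 0 in all 10 libraries. Ms4a6c shared 56.5%, mainly with BE692007 on the opposite strand, which was at 7.1 to 14.16 FPKM in WT and at 0.03 to 1.62 in the libraries labelled cKO. Ly6c2 shared 32.4% with its near copies, and Ly6c1 was at most 0.27 FPKM in any library. The share was 20.7% for Pilra, 18.5% for Lyz2 and 13.3% for Aif1, and it makes the level of such genes less certain.

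Near copies of members, as a list of 8, gave 6 genes tested. Of these, 5 were called lower and 0 higher by limma, where the shares of all genes were 16.8% and 4.60%. The near copies had 0 positive changes at an unadjusted p under 0.05 and a median log2 fold change of -2.04. S100a6, beside S100a4 on chromosome 3, was the most abundant, at 19.97 ± 5.77 FPKM in WT and 5.08 ± 3.33 in the libraries labelled cKO (mean ± SD, n = 5 each). Ms4a4c, next to the Ms4a6 genes, fell most of these (log2 fold change -4.70), with 15.4 ± 3.22 FPKM in WT against 1.05 ± 1.26 (mean ± SD, n = 5 each). Clec4a2 went from 10.7 ± 3.43 to 1.504 ± 1.22 FPKM (mean ± SD, n = 5 each). Pilrb1, like Pilra, was near the limit (log2 fold change -1.80, adjusted p = 0.0447, limma). Its call was lost without any single WT library or without cKO 2 or 4 (-1.36 for either). It was lost too with a pseudocount of 0.01 or 1 (-0.62 for 1), with no limit on the mean FPKM and with eBayes without its trend. Median-ratio scaling, quantile normalization and the Xist covariate (-1.70) also ended it. Ms4a4a was not called (adjusted p = 0.0798, limma), but was with the replicate block and without WT 2 or cKO 1. Lyz1, the near copy of Lyz2, was at most 0.37 FPKM in WT and listed at 0 in all 5 libraries labelled cKO. It is among the 5 called lower, though it reached the limit of 0.1 FPKM for testing through WT alone. Sirpb1a, related to Sirpa, was at most 0.21 FPKM. The count of 5 was 3 without any of WT 1, WT 4, WT 5, cKO 2 and cKO 4.

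Markers of other cell types were counted beside the 36 genes, and their part in the results was not tested. Over all genes tested, 16.8% were called lower and 4.60% higher, and the median log2 fold change was -0.11. Of 13 resident macrophage genes tested from a list of 14, 9 were called lower and 0 higher by limma, with 0 positive changes at an unadjusted p under 0.05 and a median log2 fold change of -1.59. Their summed level was 33.49, 62.15, 59.06, 55.77 and 58.96 FPKM in WT 1 to 5 and 29.51, 12.14, 44.1, 5.41 and 28.25 FPKM in cKO 1 to 5. Unlike for the 36 markers, cKO 3 was the highest library labelled cKO and lay above WT 1. Vcam1, the most abundant in WT, went from 9.06 ± 2.61 to 2.79 ± 1.86 FPKM, and Axl, with the largest fall, from 4.83 ± 1.22 to 1.31 ± 1.16 FPKM (mean ± SD, n = 5 each), and neither was called with the Xist covariate, at log2 fold changes of -1.60 for Vcam1 and -2.09 for Axl beside -1.92 and -2.21 without it. Marco, chosen after its values were seen, was at 9.31 FPKM in cKO 1 and at most 1.0 in any other library, and Folr2 was near 0 in all. The count of 9 depended on single libraries and settings, being 4 without any of WT 2, 3, 4 or 5 or cKO 2, 5 without cKO 4 and 1 with the Xist covariate.

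Neutrophil genes were lower in part, and differently among the libraries labelled cKO. Of 15 tested, 6 were called lower and 0 higher by limma, where the shares of all genes were 16.8% and 4.60%. These genes had 0 positive changes at an unadjusted p under 0.05, and their median log2 fold change was -1.24. They summed to 2677.41, 185.3, 897.05, 149.5 and 1135.91 FPKM in cKO 1 to 5 and to 2766.23 to 3761.49 in WT. Mpo, the most abundant in WT, went from 1162 ± 154 to 191 ± 148 FPKM, and Csf3r, with the largest fall, from 22.6 ± 2.95 to 1.95 ± 1.69 FPKM (mean ± SD, n = 5 each). Ngp and S100a9 of later neutrophils, chosen after their values were seen, were at 317.58 and 894.75 FPKM in cKO 1, above every other library. Mpo, by contrast, was highest among the libraries labelled cKO in cKO 5 (391.92 FPKM), and Ly6g, a marker of mature neutrophils, in cKO 3 (1.32 FPKM, and 0.31 in cKO 1).

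Dendritic cell genes, a sister fate of monocytes, gave 6 called lower and 0 higher by limma of 14 tested (16.8% and 4.60% of all genes). These genes had 0 positive changes at an unadjusted p under 0.05 and a median log2 fold change of -1.27. They summed to 110.34, 116.07, 115.42, 118.09 and 127.17 FPKM in WT 1 to 5 and to 75.83, 46.03, 114.1, 43.57 and 63.33 FPKM in cKO 1 to 5. Cd209a, a lectin of monocyte-derived dendritic cells, fell from 7.32 ± 1.58 to 0.064 ± 0.1 FPKM (mean ± SD, n = 5 each) and was listed at 0 in cKO 1 and cKO 4. Bst2, the most abundant, was at 53.3 ± 3.03 FPKM in WT and 43.3 ± 15.9 in the libraries labelled cKO (mean ± SD, n = 5 each), which did not pass (adjusted p = 0.163, limma).

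**Figure D5:**
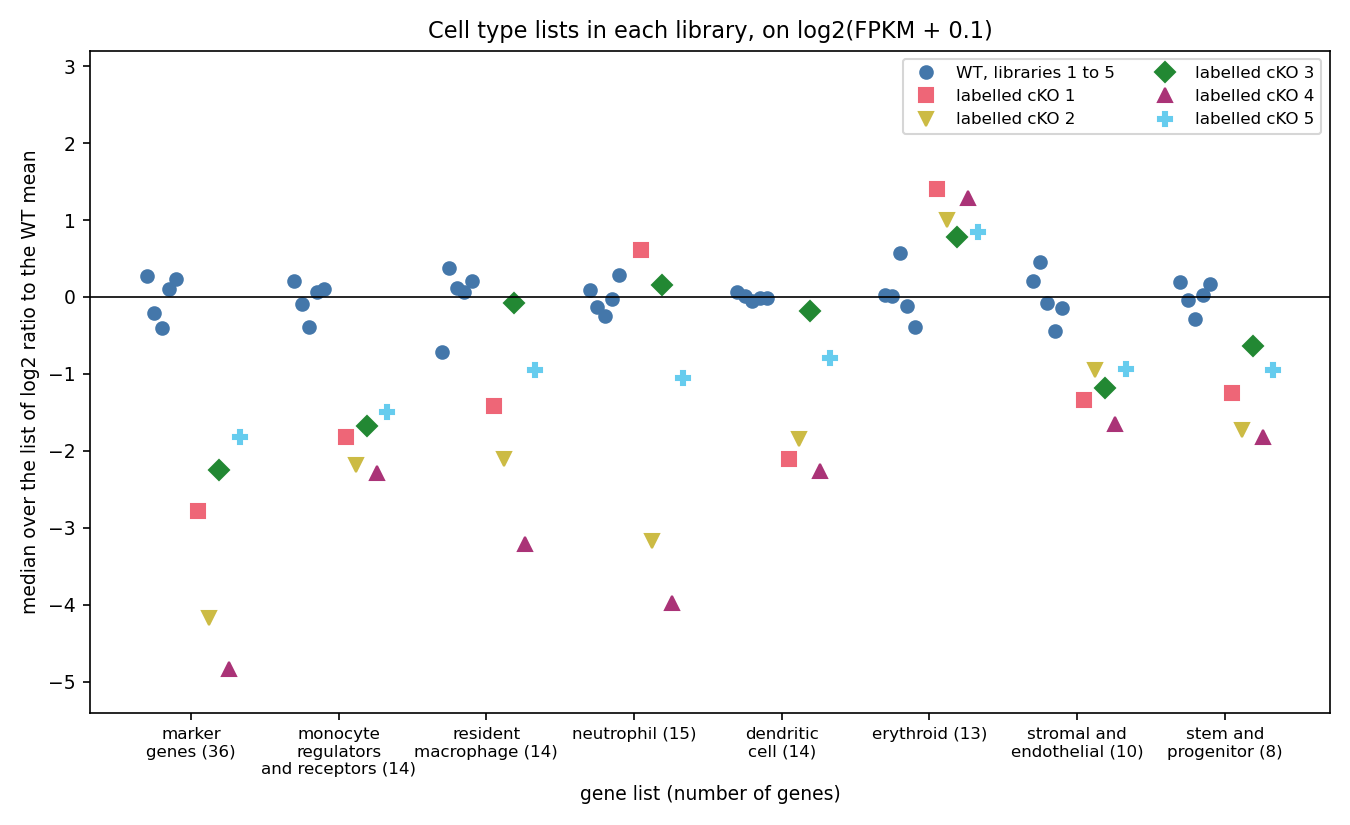
Median over each gene list of the log2 ratio to the WT mean, on log2(FPKM + 0.1), in every library, with WT as circles and the 5 libraries labelled cKO as separate symbols. The 36 marker genes lie at -2.78, -4.17, -2.25, -4.83 and -1.81 in cKO 1 to 5, the erythroid list lies above 0 in all 5, and the resident macrophage, neutrophil and dendritic cell lists are close to 0 in cKO 3 (-0.084, 0.157 and -0.177). The neutrophil list lies at 0.614 in cKO 1 and below -3 in cKO 2 and 4.

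Erythroid genes moved the other way. Of 13 tested from a list of 14, 7 were called higher and 0 lower by limma, where the shares of all genes were 4.60% and 16.8%. These genes had 0 negative changes at an unadjusted p under 0.05 and a median log2 fold change of 1.03. They summed to 1465.52, 1395.1, 2355.11, 1307.07 and 1131.95 FPKM in WT 1 to 5 and to 4424.58, 4178.75, 3740.05, 4123.84 and 2955.8 FPKM in cKO 1 to 5. Among WT, the library with the highest erythroid sum, WT 3, had the lowest sum of the 36 markers, and among the libraries labelled cKO the lowest erythroid sum and the highest marker sum were both in cKO 5. The orders did not mirror each other throughout, since cKO 1, with the highest erythroid sum among these, was in the middle for the markers, and the lowest marker sum was in cKO 4. Car2, the most abundant in WT, was higher but missed the fold limit (log2 fold change 0.79, adjusted p = 0.00175, limma), and Hbb-bs had the largest rise (log2 fold change 2.90).

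Stem and progenitor genes gave 3 called lower and 0 higher by limma of 8 tested, where the shares of all genes were 16.8% and 4.60%. These genes had 0 positive changes at an unadjusted p under 0.05 and a median log2 fold change of -1.12. Their sum was 230.53 to 318.71 FPKM in WT and 119.41, 171.01, 207.83, 174.76 and 186.45 FPKM in cKO 1 to 5. Cd48, the most abundant, was at 77.7 ± 10.3 and 82.4 ± 32.5 FPKM (mean ± SD, n = 5 each; log2 fold change -0.04, adjusted p = 0.925, limma), with a positive sign under median-ratio scaling (0.06) and without WT 1 (0.01) or cKO 1 (0.29). Flt3, with the largest fall, had a log2 fold change of -3.97, and the count of 3 was 5 without cKO 3. Stromal and endothelial genes were scarce, with sums of 21.12 to 29.9 FPKM in WT and 4.85 to 10.03 in the libraries labelled cKO. Of 8 tested from a list of 10, limma called 6 lower and 1 higher, where the shares of all genes were 16.8% and 4.60%. The median log2 fold change of these 8 was -1.50. Pecam1, also found on blood progenitors, was both the most abundant in WT and the one with the largest change (log2 fold change -3.19). It made up most of the WT sum, at 18.8 ± 1.97 FPKM in WT and 2.47 ± 1.72 in the libraries labelled cKO (mean ± SD, n = 5 each). In this list the gene called higher was Col1a2 (log2 fold change 1.74). Col3a1 and Pdgfra were below the limit for testing, at means of 0.034 and 0.021 FPKM over the 10 libraries.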

How the data were processed

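RNA of Lin- cells was sequenced in 10 libraries, 5 a genotype. The authors trimmed reads with cutadapt 1.9.1, aligned them to GRCm39 with HISAT2 2.0.1, and deposited FPKM per gene and library with 2 decimals. HTSeq 0.6.1 is named in the labels, while the annotation and gene lengths are not stated. FPKM are not counts, so DESeq2 was not run. Depth was read from single-transcript genes of 300.0 to 1000 bp, whose low FPKM are whole multiples of 1 fragment (values up to 20 fragments, within 0.2 of whole). Fragment numbers of named genes are approximate.

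The groups were compared, two-sided, with limma 3.58.1 in R 4.3.3 (lmFit, then eBayes with its trend option) on log2(FPKM + 0.1). All 18742 genes averaging 0.1 FPKM or more were tested, and p was adjusted over them by Benjamini-Hochberg. A call needed an adjusted p below 0.05 and at least a 2-fold change. The steps were tested on simulated data, with both groups drawn from the means and spreads of the WT libraries. The wider spread within the libraries labelled cKO was therefore not covered by that test. Shared sequence was sought in GENCODE vM39, and tables and figures were made with Python 3.11.15 and matplotlib 3.10.9.

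The 36 members and the lists of regulators, resident macrophage, neutrophil, dendritic cell, erythroid, stromal and endothelial, stem and progenitor genes and near copies, from general knowledge, were chosen with earlier results of these data known. Named in every library were Dhx9, the most abundant member and the largest fall of each role, and members not called lower. With means or fold changes were named the other members, most regulators, the near copies, and of each other list its most abundant gene and largest change. As alternatives, 0.01 or 1 was added in place of 0.1, all genes or those averaging 1 FPKM were tested, and libraries were scaled by median ratio, to an equal sum or by quantiles. Further ones were eBayes without its trend, a replicate block, calls on adjusted p alone, a covariate for Xist above 1 FPKM, and leaving out each library.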

Additional observations from a re-analysis of the deposited data

Results flagged for a closer look

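In 10 of 140 groups of 5 libraries examined, for the members and the other genes named by rule, the highest or lowest library lay far from the other 4. Chance alone gives about 1 in 20 groups, here 7.0, so single cases carry little weight, and no cause was tested. Among the members, Clec4n was listed at 0 in WT 1 and at 0.41 to 0.49 FPKM in the other WT libraries. Fn1 was at 10.95 FPKM in cKO 5 and at 0.13 to 2.97 in the other libraries labelled cKO.

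Among the other genes, Csf2 was at 0.3 FPKM in WT 1 and at 0.15 in cKO 2, with 0 in the rest of each group. Maf was at 0.85 FPKM in WT 2 beside 0.5 to 0.6, and Nr4a1 at 1.5 in WT 5 beside 0.77 to 0.84. Ly6c1 was at 0.17 FPKM in cKO 1 beside 0 to 0.04. In cKO 5, Cd209a was at 0.24 FPKM beside 0 to 0.04, Flt3 at 5.86 beside 0.37 to 1.79 and Hbb-bs at 563.3 beside 1066.1 to 1234.26. Marco, Ngp and S100a9, named after their values were seen and far higher in cKO 1 than in the other libraries labelled cKO, are not among these groups.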

How the results depend on the processing

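Of the 36 members, 28 were called lower under each of the 21 alternatives. The count of 32 was 28 with the covariate for Xist, without Cd14, Fgr, Itgam and Pilra, and 30 to 33 when each library was left out in turn. With the replicate block it was 31 (Pilra lost), and 3107 genes were lower and 857 higher. Same-numbered libraries of the 2 labels were at most weakly alike beyond their labels (r of -0.0103 to 0.117, with 1 of 5 pairs over 0.1). Of the 10 libraries, 5 correlated best with the one of their own number. The labels give only these numbers as a basis for the block. Of 1377 values of named genes under alternatives, 1299 kept their direction and side of the threshold, 56 lost and 10 gained a call, and 12 reversed.

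The counts over all genes moved to 1486 lower and 356 higher with a pseudocount of 1, to 1827 and 462 for genes averaging 1 FPKM, where fewer genes are tested, and to 5300 and 3138 on adjusted p alone. Quantile normalization gave 1581 higher, with 41.3% of calls higher in place of 21.5%. Under it the all-gene median log2 fold change shifted from -0.11 to 0.10, against which changes under that scaling are read. The cause was not tested.

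Near copies called lower numbered 3 with a pseudocount of 1, the Xist covariate or a filter at 1 FPKM, where 4 in place of 6 are tested. Resident macrophage genes numbered 5 with a pseudocount of 1, 4 without a filter, 3 with quantile normalization and 1 with the Xist covariate. Stromal and endothelial genes numbered 3 with a pseudocount of 1 and 1 with the filter at 1 FPKM, where 2 in place of 8 are tested. Stem and progenitor genes numbered 6 on adjusted p alone. Beyond these numbers tested, the cause was not tested.

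Leaving out each library gave 2880 to 3248 genes lower and 764 to 950 higher. It gave a member median of -3.52 to -2.82, 30 to 32 members without overlap and 0 to 0 members higher. Called lower were 9 to 10 regulators, 4 to 12 resident macrophage, 6 to 7 neutrophil, 5 to 8 dendritic cell, 0 to 0 erythroid, 5 to 6 stromal and endothelial and 3 to 5 stem and progenitor genes, and 3 to 6 near copies.

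The log2 fold changes of 4 genes, none of them called, reversed. Alox5 was -0.024 with an equal sum per library, -0.13 with the Xist covariate and -0.38 to 0.26 with each library left out. Cd48 was 0.064 with median-ratio scaling and -0.17 to 0.29 with each library left out. Maf was 0.28 and Vcan 0.083 with quantile normalization, and Maf -0.53 to 0.11 with each library left out. The cause was not tested. Values near 0.1 FPKM rest on few fragments, which limits what can be said of Ms4a7 and Clec4n.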
